A study of Mus musculus with 16 samples.

Results

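The 10 genes described here encode the kinases of cytokine signalling and some of its regulators, mostly brakes. The products are 4 Janus kinases (genes Jak1, Jak2, Jak3 and Tyk2), 4 tyrosine phosphatases (Ptpn1, Ptpn2, Ptpn6 and Ptpn11) and 2 protein inhibitors of activated STATs (Pias1 and Pias3). All 10 are referred to as members. They were taken by gene name from the 24187 rows of a table of FPKM (reads per kilobase of gene, scaled per library in a way the sources do not give). All 10 were found, each in a single row, and all 10 reached a mean of 1 FPKM over the libraries, so none was lost to the filter on low values. The table comes from messenger RNA sequencing of whole mammary gland of C57BL/6 mice on day 13 of pregnancy. The 4 wild-type libraries are from purchased mice, and the 3 mutant libraries are from Socs2-Δs mice, edited with CRISPR/Cas9, so the source of the mice and the genotype cannot be told apart. The labels give no age, and nothing in them states that each replicate was its own animal, so the p-values rest on a spread between samples that may be technical. For the mutant libraries the genotype field of the labels says wild type, against the titles, and the titles were used. The edited gene Socs2 was transcribed in all libraries labelled mutant (13.9 to 17.1 FPKM, against 16.1 to 25.6 in wild type). Of the wild-type libraries only replicate 4, at 16.1, lay within the mutant range. The log2 difference of Socs2, mutant minus wild type, did not pass: -0.46 over all libraries (limma adjusted p = 0.267). Against wild-type replicates 1 and 2 alone it was -0.58 (limma adjusted p = 0.0881).

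Cytokine receptors such as the prolactin receptor have no kinase of their own. Janus kinases bound to their tails phosphorylate the receptor and then the STAT transcription factors, STAT5 in the secretory epithelium of the mammary gland, which is needed for alveolar development and milk protein genes. SOCS proteins, which STATs induce, and some tyrosine phosphatases, which remove the phosphate, limit the signal. So do PIAS proteins, which are SUMO ligases that act on STATs in the nucleus. The comparison of Socs2-Δs with wild-type glands addresses whether the transcripts of the kinases and of these other regulators differ when the Socs2 locus is edited.

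Depth was 21329162 to 24511894 reads per library, recovered from the FPKM values, and a member rested on 209 to 4963 reads in a library. Epithelial markers were present in all 7 libraries, for example the luminal keratin gene Krt8 at 161.0 to 392.3 FPKM and the basal keratin gene Krt14 at 53.4 to 97.3 FPKM. Both were lowest in wild-type replicate 4. There 10 luminal markers summed to 794.9 FPKM, against 1230 to 2164 elsewhere, and 6 basal markers to 469.9, against 749.9 to 905.0. Wild-type replicates 3 and 4 were unlike the rest: 10 liver transcripts summed to 235.9 and 2110 FPKM there and to 7.71 to 11.2 elsewhere, and 9 salivary gland transcripts to 533.6 and 270.4 FPKM against 29.1 to 85.1. Wild-type replicate 4 and mutant replicate 2 shared a further feature, with 7 B cell markers summing to 234.5 and 175.5 FPKM and to 2.75 to 4.97 in the other 5. Differences between genotypes are therefore given over all 7 libraries and over 5 (wild-type replicates 1 and 2 with the 3 mutant libraries). The labels name no batch for these libraries.

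No member passed the test between the genotypes. Over 7 libraries 0 members passed (limma, Benjamini-Hochberg adjusted p under 0.05 over 13392 genes), where 0.0448% of all genes tested passed, and 1 member, Tyk2, had an unadjusted p under 0.05, with the mutant higher, where 18.1% of all genes did (9.12% higher and 8.98% lower in the mutant). Over 5 libraries 0 passed, against 1.94% of all genes, and 0 had an unadjusted p under 0.05, against 20.1%. The median log2 difference of the members, mutant minus wild type, was 0.12 over 7 libraries and 0.08 over 5, beside -0.004 and 0.03 for all genes tested. With 5 libraries the 95% interval of 9 members lay within a 2-fold change in either direction on the log2(FPKM + 1) scale, the exception being Ptpn6, and with 7 libraries that of 5 members did.

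**Figure D1:**
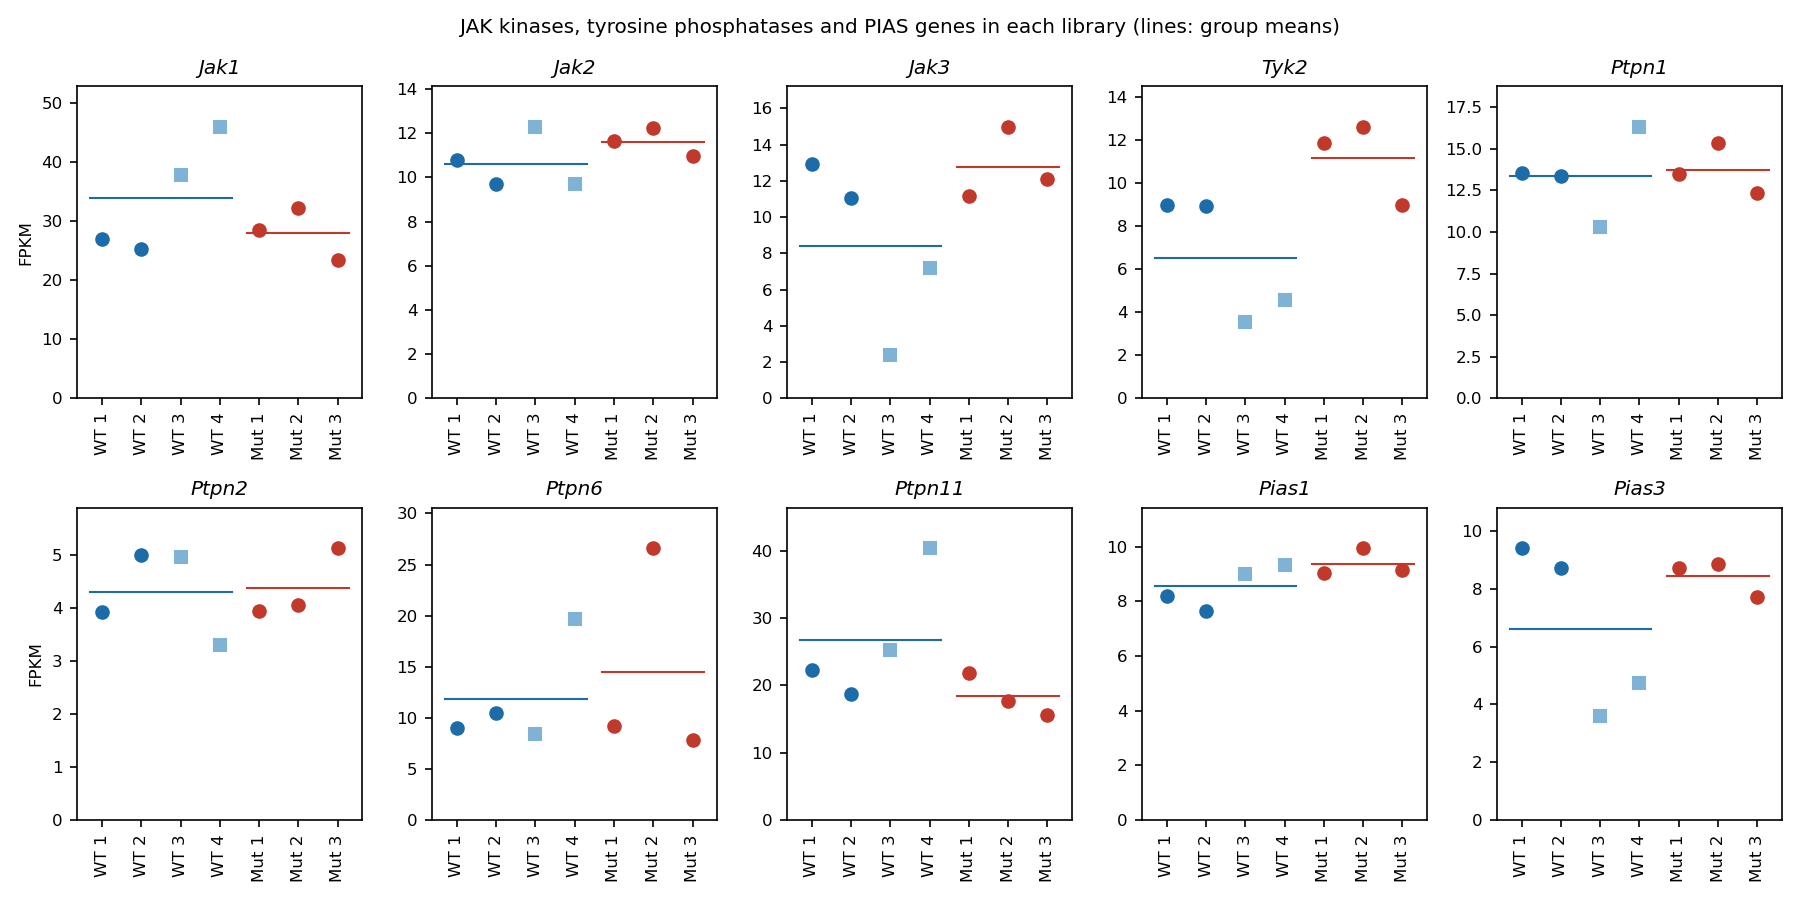
FPKM of the 10 genes (vertical axes, from 0) in each library (horizontal axes); dark blue circles are wild-type replicates 1 and 2, pale blue squares wild-type replicates 3 and 4, red circles the mutant libraries, and lines the group means. Jak2 and Pias1 are nearly level over the 7 libraries, wild-type replicates 3 and 4 are low for Jak3, Tyk2 and Pias3, and wild-type replicate 4 and mutant replicate 2 are high for Ptpn6.

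By group mean FPKM, a level per length of gene, Jak1 was the most abundant of the set and Ptpn2 the least in each genotype. In wild-type replicate 3, though, Ptpn2 (4.97 FPKM) was above Jak3, Tyk2 and Pias3. In the 5 libraries Jak1 lay at 23.4 to 32.1 FPKM, apart from Ptpn11 at 15.5 to 22.3, which in turn lay just above Ptpn1 at 12.3 to 15.3. Ptpn6, Jak3, Jak2, Tyk2, Pias1 and Pias3 followed in the order of their means, from 12.6 down to 8.68 FPKM, and each overlapped its neighbour in that order. Ptpn2, at 3.92 to 5.13 FPKM, lay below all the others in these 5.

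The letters just upstream of these genes are shown for 4 members whose levels behave differently across the libraries: Jak2, the steadiest of the kinases, Jak3 and Tyk2, which were low in wild-type replicates 3 and 4, and Ptpn6, which was high in wild-type replicate 4 and mutant replicate 2. Each window, from RefSeq (build GRCm38.p6, not the mm9 build of the FPKM table, with which no coordinate was compared), holds 250 bases before and 50 after the annotated start and is written 5′ to 3′ on the strand of the gene. The windows are chr19:29251553-29251852, plus strand, for Jak2, chr8:71676133-71676432, plus strand, for Jak3, chr9:21131226-21131525, minus strand, for Tyk2, and chr6:124738660-124738959, minus strand, for Ptpn6. Capitals mark the GC box GGGCGG on either strand, overlapping matches included.
Jak2: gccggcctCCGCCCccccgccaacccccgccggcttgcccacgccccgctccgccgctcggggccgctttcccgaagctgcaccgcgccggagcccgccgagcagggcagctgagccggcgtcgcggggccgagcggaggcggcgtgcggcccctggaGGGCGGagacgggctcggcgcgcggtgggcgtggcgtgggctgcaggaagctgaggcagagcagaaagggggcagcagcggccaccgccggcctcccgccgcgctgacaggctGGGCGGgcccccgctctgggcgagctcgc
Jak3: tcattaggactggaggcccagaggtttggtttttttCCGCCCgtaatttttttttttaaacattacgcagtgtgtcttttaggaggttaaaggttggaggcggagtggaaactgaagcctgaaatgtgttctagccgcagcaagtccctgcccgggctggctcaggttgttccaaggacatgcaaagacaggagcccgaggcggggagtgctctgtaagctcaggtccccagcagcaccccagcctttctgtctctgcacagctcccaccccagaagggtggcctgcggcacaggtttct
Tyk2: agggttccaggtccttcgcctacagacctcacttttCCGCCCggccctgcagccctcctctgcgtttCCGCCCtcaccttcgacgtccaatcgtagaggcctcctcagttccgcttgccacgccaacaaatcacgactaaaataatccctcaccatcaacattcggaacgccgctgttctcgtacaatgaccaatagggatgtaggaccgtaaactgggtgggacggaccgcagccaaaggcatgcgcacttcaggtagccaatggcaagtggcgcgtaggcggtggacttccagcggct
Ptpn6: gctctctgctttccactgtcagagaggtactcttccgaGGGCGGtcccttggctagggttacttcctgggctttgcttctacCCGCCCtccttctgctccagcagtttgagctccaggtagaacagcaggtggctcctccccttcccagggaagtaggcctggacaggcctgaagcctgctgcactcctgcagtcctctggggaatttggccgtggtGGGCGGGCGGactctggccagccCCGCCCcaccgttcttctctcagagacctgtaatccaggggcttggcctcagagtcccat
The STAT motif TTCNNNGAA, which reads the same on both strands, was searched in 10 windows of 9 members. It was in 0 of them, against 8.3% of all 32841 windows. Ptpn2 was not searched: windows on its chromosome were left out for the members, though not from the count of all windows. GGGCGG was in all 10, against 35.7% of all windows. CpG pairs numbered 44 in the Jak2 window, 23 in that of Tyk2, 9 in that of Jak3 and 8 in that of Ptpn6, with a median of 7 over all windows. These counts describe the letters only.

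Among the kinases, JAK2 is the one bound by the prolactin, growth hormone and erythropoietin receptors, and it activates STAT5 in the gland. In order of replicate, Jak2 was at 10.8, 9.72, 12.3 and 9.69 FPKM in the wild type and at 11.7, 12.2 and 11.0 in the mutant. Its highest library was 1.27 times its lowest, the narrowest range of the 10 genes, and wild-type replicate 3 lay just above every mutant library. The wild-type mean was 10.6 ± 1.23 FPKM (SD, n = 4) and the mutant mean 11.6 ± 0.636 (SD, n = 3), with a log2 difference of 0.12 (SE 0.14, 95% interval -0.20 to 0.45, limma adjusted p = 0.617). Against wild-type replicates 1 and 2 the 3 mutant libraries were all higher, by 0.17 (interval -0.09 to 0.43, limma adjusted p = 0.439).

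JAK1 serves the interferon, gp130 and common gamma chain receptors. The wild-type libraries held Jak1 at 27.0, 25.2, 37.7 and 45.9 FPKM, and the mutant ones at 28.4, 32.1 and 23.4. Wild-type replicates 3 and 4 lay above the other 5 libraries, among which the genotypes overlapped. The means were 33.9 ± 9.70 and 28.0 ± 4.39 FPKM (SD, n = 4 and 3), and the log2 difference was -0.24 (SE 0.24, limma adjusted p = 0.571). Over 5 libraries it was 0.09 (interval -0.29 to 0.46, limma adjusted p = 0.806), so the sign turned with the inclusion of wild-type replicates 3 and 4.

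JAK3 pairs with the common gamma chain of interleukin receptors and is best known from lymphocytes. Jak3 was at 12.9, 11.1, 2.40 and 7.18 FPKM in the wild type and at 11.1, 15.0 and 12.1 in the mutant. Wild-type replicate 3 had the lowest value and replicate 4 the next, below the other 5 libraries, and the span of 6.24 times was the widest of the 10 genes. The means were 8.39 ± 4.66 and 12.7 ± 2.003 FPKM (SD, n = 4 and 3). The log2 difference was 0.72 (SE 0.45, interval -0.32 to 1.76, limma adjusted p = 0.386) and 0.07 over 5 libraries (interval -0.31 to 0.45, limma adjusted p = 0.839).

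TYK2 transmits type I interferon and interleukin-12 family signals. Levels of Tyk2 were 8.97, 8.92, 3.55 and 4.55 FPKM in the wild type and 11.9, 12.6 and 8.99 in the mutant. Every mutant library was above every wild-type library, but only just: mutant replicate 3 had 8.99 FPKM from 946 reads, with an exact Poisson 95% interval of 8.42 to 9.58 for counting error alone, and wild-type replicate 1 had 8.97 FPKM (8.45 to 9.51). The means were 6.49 ± 2.86 and 11.1 ± 1.91 FPKM (SD, n = 4 and 3). The log2 difference of 0.77 (SE 0.31, interval 0.05 to 1.49) had the smallest p of the set, 0.0387 unadjusted, and did not pass (limma adjusted p = 0.258). Over 5 libraries it was 0.28 (interval -0.11 to 0.67, limma adjusted p = 0.396).

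Over 7 libraries Tyk2 was 1 of 10 members whose wild-type and mutant libraries did not overlap, where 22.5% of all genes tested did not (12.5% with the mutant higher and 10.0% with it lower). Over 5 libraries 3 of 10 members did not overlap, Jak2, Tyk2 and Pias1, all with the mutant higher, where 39.9% of all genes did not (21.8% higher and 18.1% lower). As for Tyk2, Poisson 95% intervals of the nearest libraries overlapped. For Jak2 they were 10.4 to 11.6 FPKM in mutant replicate 3 and 10.2 to 11.4 in wild-type replicate 1. For Pias1 they were 8.42 to 9.67 FPKM in mutant replicate 1 and 7.63 to 8.77 in wild-type replicate 1.

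The 4 kinases together summed to 54.9 to 72.0 FPKM in the 7 libraries, while their make-up was not the same in all. In the 5 libraries Jak1 gave 42.2 to 45.9% of that sum, Jak2 17.0 to 19.8%, Jak3 17.7 to 21.8% and Tyk2 15.0 to 18.8%. The Jak1 share was 45.2 and 45.9% in wild-type replicates 1 and 2, just above the mutant range of 42.2 to 45.0%. For the other kinases the shares of the genotypes overlapped. Jak1 gave 67.4 and 68.2% in wild-type replicates 3 and 4. Tyk2 gave 6.34 and 6.75% there, and Jak3 4.30 and 10.7%. Jak1 measured 2.13 to 2.63 times Jak2 in the 5 libraries, 3.06 times in wild-type replicate 3 and 4.74 times in replicate 4.

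**Figure D2:**
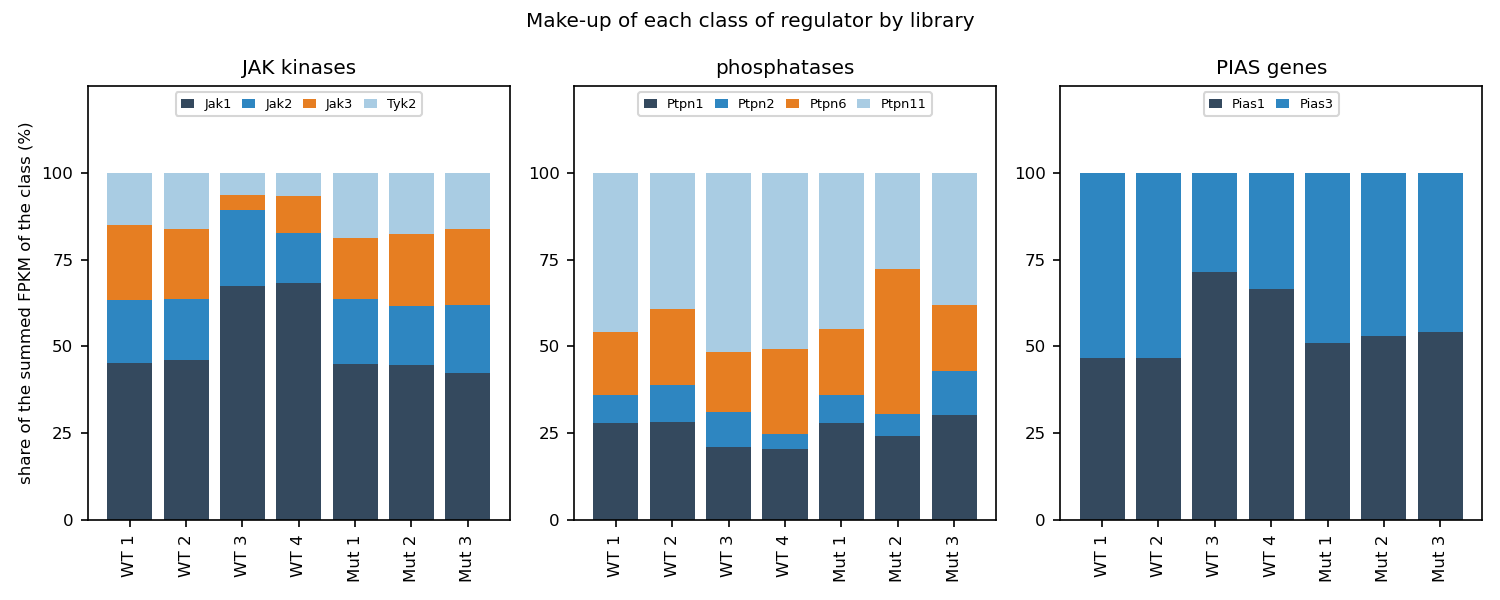
Share of the summed FPKM (vertical axis, percent) of the kinases, the phosphatases and the PIAS genes taken by each gene, 1 bar per library. Wild-type replicates 3 and 4 have the largest Jak1 and Pias1 shares, and mutant replicate 2 has the largest Ptpn6 share, 41.7%.

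Of the phosphatases, PTP1B, the product of Ptpn1, sits on the endoplasmic reticulum and dephosphorylates JAK2 and TYK2. Ptpn1 was at 13.6, 13.4, 10.3 and 16.3 FPKM in the wild type and at 13.5, 15.3 and 12.3 in the mutant. Both the lowest and the highest library were wild type, and the groups overlapped throughout. The means were 13.4 ± 2.47 and 13.7 ± 1.52 FPKM (SD, n = 4 and 3; log2 difference 0.04, SE 0.18, limma adjusted p = 0.900). Over 5 libraries the difference was 0.02, with a 95% interval of -0.28 to 0.32.

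Ptpn2 encodes the T cell protein tyrosine phosphatase, a close relative that acts on JAK1, JAK3 and nuclear STATs. Its levels were 3.92, 4.99, 4.97 and 3.31 FPKM in the wild type and 3.94, 4.06 and 5.13 in the mutant, again with full overlap. The log2 difference was 0.03 (SE 0.18, interval -0.38 to 0.44, limma adjusted p = 0.934), and -0.02 over 5 libraries (interval -0.40 to 0.36).

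Ptpn11 encodes SHP2, a widely expressed phosphatase with SH2 domains that also carries receptor signals to the RAS pathway. Its levels were 22.3, 18.7, 25.3 and 40.4 FPKM in the wild type and 21.9, 17.7 and 15.5 in the mutant. Wild-type replicates 3 and 4 were the highest, and mutant replicate 1 lay between wild-type replicates 1 and 2. The means were 26.7 ± 9.53 and 18.4 ± 3.23 FPKM (SD, n = 4 and 3), a log2 difference of -0.47 (SE 0.27, interval -1.08 to 0.14, limma adjusted p = 0.353). Over 5 libraries it was -0.16 (interval -0.58 to 0.26, limma adjusted p = 0.663).

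Ptpn6 encodes SHP1, the phosphatase of the same family that is most abundant in blood cells, where it restrains antigen and cytokine receptors. The wild-type libraries held 8.94, 10.4, 8.37 and 19.6 FPKM of it, and the mutant ones 9.17, 26.6 and 7.77. A single library of each genotype was thus high, wild-type replicate 4 and mutant replicate 2, and the other 5 lay within 7.77 to 10.4 FPKM. The means were 11.8 ± 5.27 and 14.5 ± 10.5 FPKM (SD, n = 4 and 3), with a log2 difference of 0.15 (SE 0.44, interval -0.86 to 1.16, limma adjusted p = 0.859) and of 0.34 over 5 libraries (interval -0.89 to 1.57, limma adjusted p = 0.759). With both high libraries left out, a comparison chosen after the values were seen, it was -0.11 (limma adjusted p = 0.884).

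The same 2 libraries were highest for lymphocyte markers. They exceeded the other 5 for 7 of 7 B cell markers, 7 of 7 T cell markers and 9 of 10 pan-leukocyte markers, and for 3.73% of all genes tested. T cell markers summed to 128.1 and 99.4 FPKM in wild-type replicate 4 and mutant replicate 2 and to 8.47 to 20.5 elsewhere, and pan-leukocyte markers to 648.0 and 464.2 against 162.0 to 234.9. No marker of these 3 lists was at 0 in any library. Macrophage markers did not follow, and were highest in wild-type replicate 3 (1015 FPKM), where Ptpn6 measured 8.37. In whole tissue, more cells of a type and more RNA per cell cannot be told apart, and the part of lymphocytes in the level of Ptpn6 was not tested.

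Among the members, Ptpn1 and Pias1 also had their highest values in these 2 libraries, though by little: 16.3 and 15.3 FPKM against at most 13.6 for Ptpn1, and 9.35 and 9.94 against at most 9.16 for Pias1. Jak3 had its highest value in mutant replicate 2 (15.0 FPKM) but not in wild-type replicate 4 (7.18). Its receptor partner Il2rg, the common gamma chain, measured 47.3 and 40.7 FPKM in wild-type replicate 4 and mutant replicate 2 and 12.1 to 21.2 elsewhere. The interleukin-7 receptor gene Il7r measured 8.25 and 7.63 FPKM against 0.216 to 0.623. In the 4 libraries where B cell markers summed to 2.75 to 3.63 FPKM, Jak3 was at 11.1 to 12.9 FPKM, and in wild-type replicate 3, where they summed to 4.97, it was at 2.40.

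**Figure D3:**
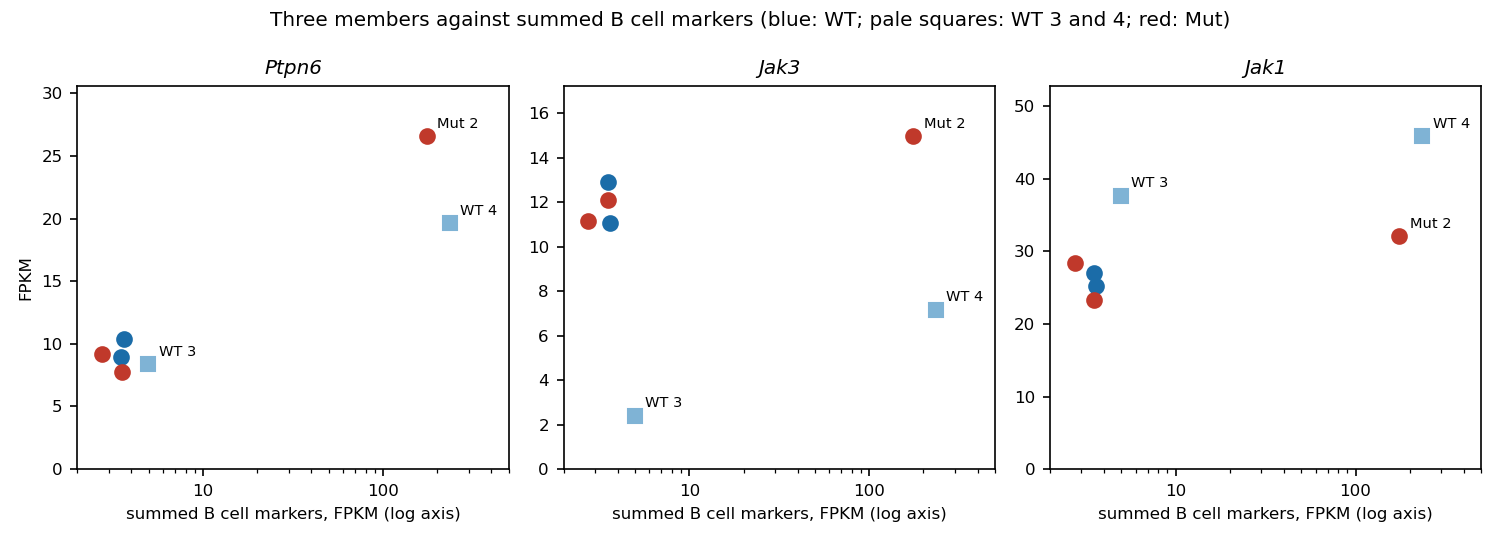
FPKM of Ptpn6, Jak3 and Jak1 (vertical axes, from 0) against the summed FPKM of 7 B cell markers (log axis), 1 point per library; blue is wild type, with pale squares for replicates 3 and 4, and red is mutant. The points at 234.5 and 175.5 FPKM of B cell markers are the highest for Ptpn6, whereas for Jak3 they lie at 7.18 and 15.0 FPKM.

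PIAS proteins were named for their inhibition of activated STATs. Pias1 was at 8.18, 7.64, 9.01 and 9.35 FPKM in the wild type and at 9.03, 9.94 and 9.16 in the mutant. The means were 8.55 ± 0.776 and 9.38 ± 0.496 FPKM (SD, n = 4 and 3), a log2 difference of 0.12 (SE 0.13, interval -0.19 to 0.43, limma adjusted p = 0.601). All 3 mutant libraries lay above wild-type replicates 1 and 2, by 0.22 (interval -0.03 to 0.47, limma adjusted p = 0.307), and wild-type replicate 4 lay within the mutant range.

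Levels of Pias3 were 9.40, 8.73, 3.61 and 4.72 FPKM in the wild type and 8.71, 8.86 and 7.73 in the mutant. Wild-type replicates 3 and 4 were the lowest, and the other 5 libraries overlapped. The means were 6.62 ± 2.88 and 8.43 ± 0.610 FPKM (SD, n = 4 and 3), with a log2 difference of 0.39 (SE 0.30, interval -0.30 to 1.08, limma adjusted p = 0.466). Over 5 libraries it was -0.10 (interval -0.36 to 0.17, limma adjusted p = 0.683), of the other sign. Pias1 was 0.870 and 0.876 times Pias3 in the first pair of wild-type libraries, 2.50 and 1.98 times in the second, and 1.04 to 1.18 times in the mutant ones.

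**Figure D4:**
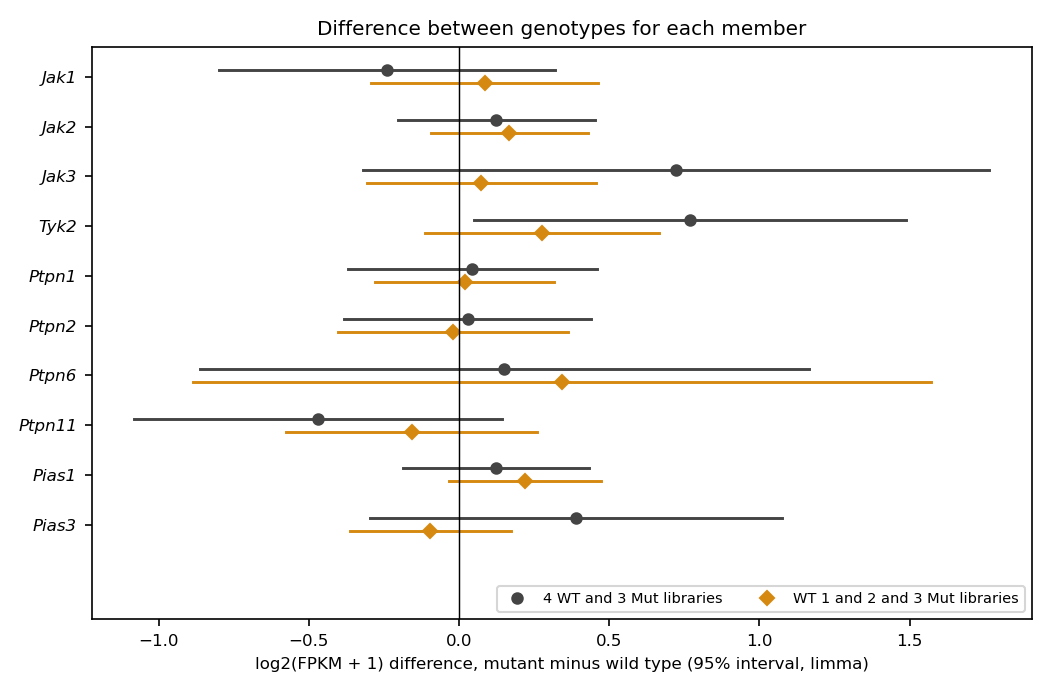
Log2(FPKM + 1) difference, mutant minus wild type, of each gene with its 95% interval from limma; dark grey circles use all 7 libraries and orange diamonds wild-type replicates 1 and 2 with the 3 mutant libraries. Over 7 libraries the interval of Tyk2, 0.05 to 1.49 before adjustment, is the only one of the 10 that does not hold 0, and over 5 libraries all 10 hold 0.

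For 5 of the 10 genes, wild-type replicates 3 and 4 lay to one side of the other 5 libraries. In these, Jak3, Tyk2 and Pias3 were below and Jak1 and Ptpn11 above all other libraries, that is 3 and 2 of the 10, beside 25.2% and 25.1% of all genes tested. The mean of the 2 libraries relative to the mean of the other 5 was 0.385 for Jak3, 0.394 for Tyk2 and 0.480 for Pias3, and 1.54 for Jak1 and 1.71 for Ptpn11. These libraries also held the liver and salivary transcripts given above, and the part of these in the members' levels was not tested.

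The genes of most like pattern over the 7 libraries shared this split, as the measure of likeness favours. For Tyk2, Ptpn11 and Pias3, which had the smallest p among the kinases, the phosphatases and the PIAS genes, likeness was the root mean square difference of log2(FPKM + 1) values centred on their mean, over 12720 named genes tested. Nearest to Tyk2 were Ttll3 (0.0701), Recql5 (0.0809) and Kmt2a (0.0921), to Ptpn11 Pcyox1 (0.0707), Galnt2 (0.0729) and Tmem65 (0.0873), and to Pias3 Exosc10 (0.0528), Top3b (0.0576) and B3gntl1 (0.0582). Recql5, for example, was at 6.21, 6.30, 2.06 and 2.52 FPKM in the wild type and at 6.53 to 8.13 in the mutant.

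Around the members, 77 other genes of the pathway were tested, in 7 lists. Over 7 libraries 0 of them passed in limma (4 higher and 6 lower at an unadjusted p under 0.05), and over 5 libraries 2 rose and 0 fell (limma adjusted p under 0.05; 1.26% of all genes tested rose and 0.68% fell). The 2 were Stat5a, the main STAT downstream of JAK2 in the gland, and Cish, a SOCS family inhibitor that STAT5 induces. Stat5a was at 50.1, 53.0, 30.8 and 20.9 FPKM in the wild type and at 88.9 to 104.8 in the mutant (log2 difference over 5 libraries 0.93, SE 0.13, limma adjusted p = 0.0397; over 7 libraries 1.42, adjusted p = 0.143). Cish was at 31.0, 34.5, 23.2 and 14.4 FPKM in the wild type and at 62.4 to 84.6 in the mutant (1.11, SE 0.16, limma adjusted p = 0.0408; over 7 libraries 1.51, adjusted p = 0.122). Both calls rested on all 5 libraries: with any single one left out, the log2 difference stayed between 0.89 and 1.00 for Stat5a and 0.99 and 1.20 for Cish, but the limma adjusted p lay between 0.085 and 0.270 and between 0.071 and 0.272. Without the filter on low values it was 0.068 for Stat5a and 0.0799 for Cish, and with a replicate block 0.069 and 0.049. In the same mutant libraries Jak2 lay at 11.0 to 12.2 FPKM, against 9.69 to 12.3 in the wild type. Markers of secretory alveoli were higher in the same libraries, with 8 of them summing to 80710 to 107556 FPKM in mutant and to 4055 to 45984 in wild type, and their part in the levels of Stat5a and Cish was not tested.

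In the other 5 lists no gene passed, and the genes of smallest p are given as values. Of 20 tested receptors that bind JAKs, the growth hormone receptor gene Ghr averaged 136.7 ± 92.1 FPKM in the wild type and 41.1 ± 6.50 in the mutant (SD, n = 4 and 3; log2 difference -1.52, limma adjusted p = 0.174; over 5 libraries -0.99, adjusted p = 0.0747). Il13ra1, a receptor chain for interleukins 4 and 13, averaged 11.7 ± 5.40 and 5.23 ± 0.601 FPKM (SD, n = 4 and 3; -0.94, limma adjusted p = 0.210; over 5 libraries -0.46, adjusted p = 0.127). Markers of other cell types were lower in the same mutant libraries: 10 adipocyte markers summed to 10931 to 23052 FPKM in the wild type and 3538 to 6711 in the mutant, 9 fibroblast markers to 2396 to 3081 and 1471 to 2085, and 9 macrophage markers to 508.3 to 1015 and 359.2 to 448.5. None of these markers was at 0 in any library. Over 5 libraries 2 of the 10 adipocyte markers, Cidec and Pparg, were called lower (limma adjusted p under 0.05), beside 0.68% of all genes tested. Lower calls numbered 91 among all genes, and 0 to 6 with a single mutant library left out. The adipocyte sum was highest in wild-type replicate 4, where Ghr was also highest (272.5 FPKM), and the macrophage sum in wild-type replicate 3, where Il13ra1 was (18.9 FPKM). The liver sum was likewise highest in wild-type replicate 4 (2110 FPKM). Salivary gland and skeletal muscle sums were highest in wild-type replicate 3 (533.6 and 880.6 FPKM). The part of any of these tissues and cell types in the levels of both receptors was not tested. Among 14 adaptors and ubiquitin ligases, the insulin receptor substrate gene Irs1 measured 14.6 ± 1.73 and 10.9 ± 0.707 FPKM (SD, n = 4 and 3; -0.38, limma adjusted p = 0.248; over 5 libraries -0.29, adjusted p = 0.239). Sh2b1, whose product binds and enhances JAK2, was at 20.0, 19.1, 7.76 and 8.95 FPKM in the wild type and at 21.3 to 23.0 in the mutant (0.73, limma adjusted p = 0.288; over 5 libraries 0.16, adjusted p = 0.404), again low in wild-type replicates 3 and 4. Among 7 other phosphatases reported on JAKs or STATs, Dusp3 measured 10.1 to 32.6 FPKM in the wild type and 8.997 to 11.8 in the mutant, and Ptpn9 11.99 to 14.3 and 10.7 to 12.6 (log2 differences -0.59 and -0.20, limma adjusted p = 0.389 and 0.427; over 5 libraries -0.44 and -0.10, adjusted p = 0.346 and 0.668). Among 7 partner receptors of SHP1 and SHP2, Pecam1 measured 33.5 to 53.3 and 30.1 to 40.7 FPKM, and Lair1 1.76 to 2.73 and 1.38 to 2.43 (-0.24 and -0.17, limma adjusted p = 0.512 and 0.632; over 5 libraries -0.18 and -0.13, adjusted p = 0.587 and 0.791).

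A list of 14 genes held the SUMO machinery that PIAS ligases work with and the PIAS genes Pias2 and Pias4. Its median log2 difference was 0.12 over 7 libraries and 0.14 over 5, beside -0.004 and 0.03 for all genes tested. In wild-type replicates 3 and 4, 5 of the 14 lay below and 4 above the other 5 libraries, beside 25.2% and 25.1% of all genes tested. Senp3, a nucleolar SUMO protease, was at 30.7, 30.6, 23.2 and 19.9 FPKM in the wild type and at 38.7 to 41.1 in the mutant, without overlap (log2 difference 0.62, SE 0.19, limma adjusted p = 0.195; over 5 libraries 0.37, adjusted p = 0.112). Pias4, a further member of the PIAS family, was at 9.79, 10.0, 4.66 and 5.90 FPKM in the wild type and at 11.1 to 11.9 in the mutant (0.59, limma adjusted p = 0.277; over 5 libraries 0.19, adjusted p = 0.351). Like Pias3 it was lowest in wild-type replicates 3 and 4.

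**Figure D5:**
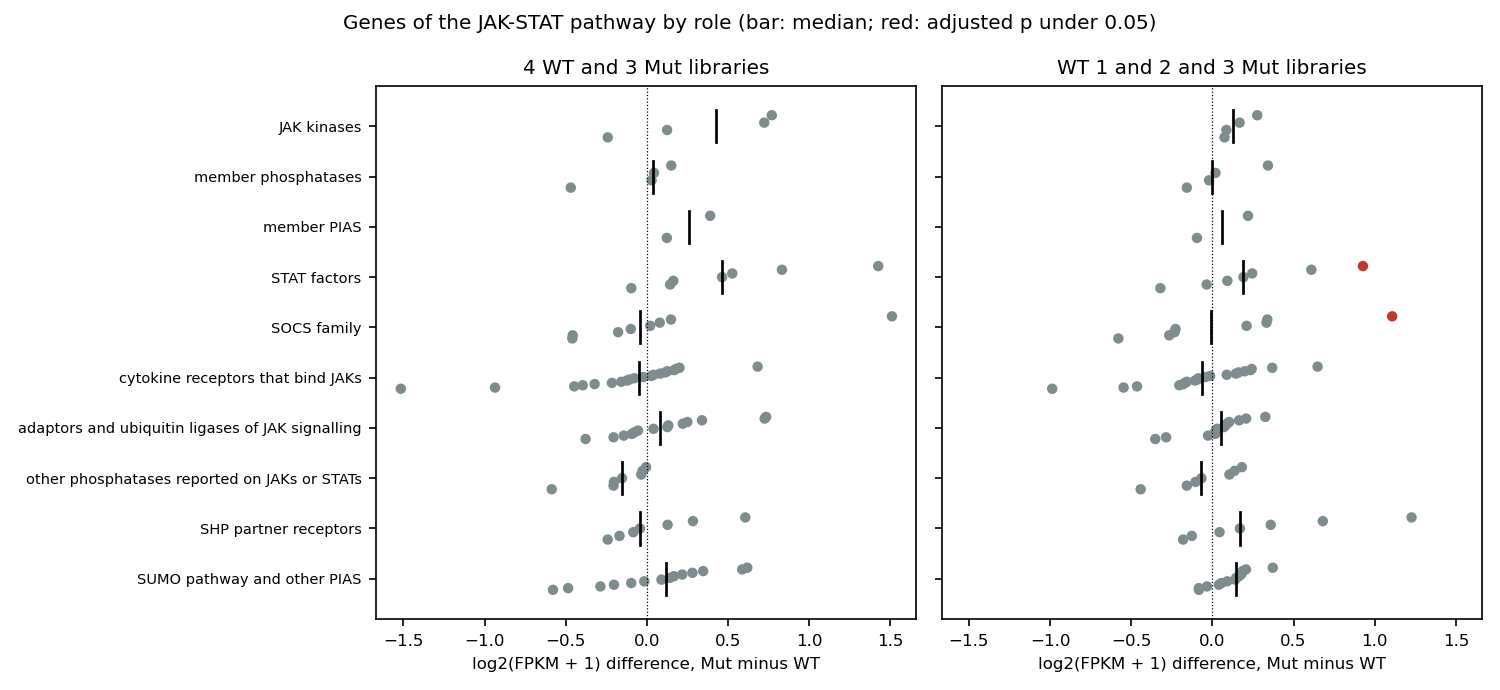
Log2(FPKM + 1) difference, mutant minus wild type, of the tested genes of each pathway list (grey points; red where the limma adjusted p was under 0.05; bar, median), over 7 libraries (left) and over wild-type replicates 1 and 2 with the mutant libraries (right). On the right the kinases, phosphatases and PIAS genes of the set lie between -0.16 and 0.34, and the red points are Stat5a at 0.93 and Cish at 1.11.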

How the data were processed

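Libraries were grouped by title, and columns of the table were matched to samples by group and replicate number. The authors deposited FPKM per gene, with an Entrez ID. Per the submitters' processing notes, the tools were CASAVA, STAR, Bowtie2 and DESeq2 (no role or version recorded) and the build was mm9. For the scaling, the annotation and the use of strand, the sources used here give nothing, so reads of a gene and of an antisense partner cannot be told apart. The 9 samples of other assays were not analysed here.

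Log2(FPKM + 1) was tested with limma 3.58.1 in R 4.3.3 (empirical Bayes with a mean-variance trend, no covariate) for the 13392 genes averaging 1 FPKM or more in the 7 libraries, with Benjamini-Hochberg adjustment over all of them and a threshold of 0.05. This scale understates changes of low genes. Whole reads were recovered from the steps between values (tolerance 0.02 of a read) in 21044 of 21044 rows with a value above 0. They were the smallest whole numbers that match a gene's values. They served for depth and for the Poisson intervals of Tyk2, Jak2 and Pias1, not for the test. On simulated data the test recovered 37% of changes of 1 and 84% of changes of 2 on the log2 scale over 7 libraries, and 50% and 90% over 5.

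The members, lists and comparisons were chosen with earlier results of these data known. Named were all 10 members, Socs2, the members of each pathway list past the threshold or else the 2 of smallest p over 7 libraries, and the 3 genes of most like pattern for 3 members; markers, Il2rg and Il7r were added after their values were seen. RefSeq windows were matched by symbol, with the chromosome of Ptpn2 left out for the members. Alternatives were another pseudocount, no filter, other scalings, no trend, a replicate block, a term for wild-type replicates 3 and 4, and leaving out libraries.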

Additional observations from a re-analysis of the deposited data

How the results depend on the processing

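None of the 10 members passed the threshold in limma under any of the 15 alternatives over 7 libraries or the 11 over 5, that is in 0 of 150 and 0 of 110 values. The limma adjusted p of Tyk2 ranged from 0.169 to 0.742 over 7 libraries and from 0.131 to 0.717 over 5. The sign turned in 13 and 10 of these values, for 5 members each. Over 7 libraries, a term for wild-type replicates 3 and 4 gave 0.086 for Jak1, -0.10 for Pias3 and -0.021 for Ptpn2, quantile normalization gave -0.036 for Ptpn2, and leaving out wild-type replicate 4 and mutant replicate 2, chosen after seeing the data, gave -0.026 for Ptpn2 and -0.11 for Ptpn6. Over 5, Ptpn1 was at -0.0048 with median-of-ratios scaling and -0.018 with quantile normalization. The cause was not tested.

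With single replicates left out, log2 differences over 7 libraries ranged from -0.37 to -0.086 for Jak1, from 0.086 to 0.19 for Jak2, from 0.30 to 0.97 for Jak3, from 0.56 to 0.93 for Tyk2, from -0.068 to 0.14 for Ptpn1, from -0.069 to 0.093 for Ptpn2, from -0.37 to 0.46 for Ptpn6, from -0.61 to -0.26 for Ptpn11, from 0.076 to 0.16 for Pias1 and from 0.18 to 0.57 for Pias3. Over 5 libraries they ranged from -0.017 to 0.20 for Jak1, from 0.10 to 0.24 for Jak2, from -0.040 to 0.18 for Jak3, from 0.19 to 0.41 for Tyk2, from -0.059 to 0.087 for Ptpn1, from -0.16 to 0.12 for Ptpn2, from -0.17 to 0.65 for Ptpn6, from -0.28 to -0.037 for Ptpn11, from 0.18 to 0.26 for Pias1, from -0.14 to -0.041 for Pias3 and from -0.33 to 0.072 for Lair1. Leaving out wild-type replicate 1 or 2 there leaves a lone wild-type library, assumed to vary like the mutant ones. Ptpn6 turned negative without mutant replicate 2, to -0.37 over 7 libraries and -0.17 over 5. Some members kept their sign over 7 libraries whichever single replicate was left out. Among these, leaving out wild-type replicate 3 gave 0.30 for Jak3, 0.18 for Pias3 and 0.19 for Jak2. Leaving out replicate 4 gave -0.086 for Jak1 and -0.26 for Ptpn11, and leaving out replicate 2 gave -0.37 for Jak1 and 0.076 for Pias1. Over 5 libraries, Ptpn11 was at -0.037 without wild-type replicate 1 and Pias3 at -0.041 without mutant replicate 3.

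The count of all genes called, 6 over 7 libraries and 260 over 5, was less stable. The 6 became 1 with a pseudocount of 0.1, 1 without a filter, 28 with quantile normalization, 0 with the term for wild-type replicates 3 and 4, 0 without wild-type replicate 4 and mutant replicate 2, and 0 to 31 with single replicates left out (17 and 31 without wild-type replicates 3 and 4, at most 1 without any other). The 260 became 25 without a filter and 0 to 42 with single replicates left out, 42 without mutant replicate 3 and at most 6 without any other. Without a filter or a single replicate, Stat5a and Cish were no longer called over 5 libraries. Other scalings moved the median of all genes by less than 0.1.

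Pairing by replicate number is unstated and open. Deviations from group means correlated across genes at 0.35, -0.104 and 0.283 for numbers 1 to 3. Wild-type numbers 1 and 3, not 2, correlated best with their own. Of unlike number, wild-type replicate 4 and mutant replicate 2, both high in lymphocyte markers, correlated at 0.338, so values of this size also arose without a shared number. With a replicate block, 0 genes were called over 7 libraries and 130 over 5, 0 members in each, and Ptpn2 was at -0.066 over 7 libraries, while Lair1 was at 0.017 over 5. The block ended the call of Stat5a (limma adjusted p = 0.069), at a log2 difference of 0.89.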
